A study of Homo sapiens with 9 samples.

Results

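Untreated differentiated Caco-2 cells were profiled in 3 of the 9 RNA-seq libraries of a study on a red food color, and the levels of 28395 genes within these 3 libraries are described here. They were chosen by their label (untreated), and the 6 libraries of cells given Carmine or Carminic acid were not used, so there is no comparison between treatments. Caco-2 is an established cell line from a human colon carcinoma, labelled WT here. The controls, A, B and C, had been differentiated in plates in serum-containing culture medium and then received regular medium for 24 hours. The labels do not say whether the 3 samples came from separate cultures, so the spread between them may be technical. All levels are counts per 1000000 total counts of the library (CPM), given as mean ± SD with n = 3. CPM depends on transcript length, so ratios between genes are given per kilobase of the main transcript (CPM/kb), and an order or sum by CPM is named as such.

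Enterocytes are the absorptive cells of the small intestine. Their apical side carries a brush border of actin-filled microvilli with digestive enzymes and nutrient transporters, and they package dietary fat into apolipoprotein B particles. Caco-2 cells grown past confluence form a polarized layer with many of these features although they come from the colon, and they are widely used to model intestinal uptake. The line is also known for products of fetal gut and of liver. In a bulk sample, fewer cells of a type and less RNA per cell cannot be told apart.

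The libraries held 54871018 (A), 55946366 (B) and 56511439 (C) counts, so 3 counts, the limit that a count of 0 allows, equal 0.0531 to 0.0547 CPM in a library. This limit covers counting error only, and the reads carried no stated molecular identifiers. A gene counts as detected here when it reached 1 CPM in every library. That held for 12957 genes (45.6%), and for 12068 of 19175 protein-coding genes (62.9%). No count in any library was found for 7381 genes, 2573 of them protein coding. The 3 libraries were not copies of each other: chi-square per degree of freedom was 19.0 between A and B, 19.9 between A and C and 9.51 between B and C.

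The given marker genes of a differentiated intestinal layer were all detected. VIL1, which encodes villin, an actin bundler of microvilli (chromosome 2, 218419123 to 218453295 in GRCh38.p14), was at 1227, 1237 and 1182 CPM in A, B and C. DPP4, a brush border dipeptidyl peptidase (chromosome 2, 161992245 to 162074215), was at 744, 783 and 797 CPM. SI, the sucrase-isomaltase that splits sucrose and starch fragments (chromosome 3, 164978898 to 165090232), was at 289, 299 and 300 CPM. These values lay close together in the 3 libraries, and they placed VIL1 at the 99.73rd, DPP4 at the 99.48th and SI at the 98.16th percentile of all listed genes by CPM. APOA1, the main protein of high-density lipoprotein (chromosome 11, 116835751 to 116837622), was at 1355, 1335 and 1215 CPM. CDX2, the homeobox factor of intestinal identity (chromosome 13, 27960918 to 27969315), was at 206, 198 and 183 CPM. Both were lowest in C and highest in A, by a margin far smaller than their distance from the median detected gene, which was at 27.5 CPM. Exons of VIL1 share 44.3% of their length with exons of another counted gene, and how reads in shared exons were assigned is not given in the sources used here.

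The promoters of 4 members are shown because these genes stand for the intestinal (SI), shared (FABP1) and liver-type (AHSG, AFP) sides of the profile. Each sequence is the 250 bases before the start listed by RefSeq (GRCh38.p14), 5′ to 3′ on the gene's strand. The listed start of SI lies inside the annotated span of the gene. SI is at chr3:165078497-165078746 (minus strand), FABP1 at chr2:88128063-88128312 (minus), AHSG at chr3:186612810-186613059 (plus) and AFP at chr4:73435971-73436220 (plus). Capitals mark matches, on either strand, to TTTATNG (a CDX-type motif), GTTAAT (an HNF1-type motif) or CAAAGTCCA (an HNF4-type motif).
SI: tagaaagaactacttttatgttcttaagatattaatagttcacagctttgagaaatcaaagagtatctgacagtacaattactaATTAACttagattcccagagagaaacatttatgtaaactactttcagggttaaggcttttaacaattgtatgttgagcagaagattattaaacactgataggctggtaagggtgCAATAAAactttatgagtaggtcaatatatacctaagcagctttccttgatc
FABP1: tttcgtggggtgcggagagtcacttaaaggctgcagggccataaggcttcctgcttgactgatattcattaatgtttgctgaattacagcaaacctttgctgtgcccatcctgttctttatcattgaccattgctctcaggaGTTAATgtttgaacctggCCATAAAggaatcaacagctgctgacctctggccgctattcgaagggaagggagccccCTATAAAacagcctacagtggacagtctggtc
AHSG: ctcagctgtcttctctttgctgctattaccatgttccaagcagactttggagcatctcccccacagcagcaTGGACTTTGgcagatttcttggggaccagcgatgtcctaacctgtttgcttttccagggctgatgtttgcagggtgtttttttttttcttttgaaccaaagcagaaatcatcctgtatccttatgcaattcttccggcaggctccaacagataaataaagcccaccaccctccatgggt
AFP: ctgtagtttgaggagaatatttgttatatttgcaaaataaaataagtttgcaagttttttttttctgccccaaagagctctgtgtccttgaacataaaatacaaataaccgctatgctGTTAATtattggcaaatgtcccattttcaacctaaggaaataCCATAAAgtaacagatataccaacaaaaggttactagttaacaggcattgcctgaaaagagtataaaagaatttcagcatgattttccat
The SI window held an HNF1-type match 166 to 161 bases and a CDX-type match 52 to 46 bases before the start. In FABP1 an HNF1-type match lay at 108 to 103 and CDX-type matches at 90 to 84 and 32 to 26, the latter also holding the letters TATAAA. The AHSG window held an HNF4-type match at 179 to 171, and the AFP window an HNF1-type match at 132 to 127 and a CDX-type match at 90 to 84. A match is a description of the letters and not a measured binding site.

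Over 15331 protein-coding promoters of this length, TTTATNG was present in 7.59%, GTTAAT in 4.87% and CAAAGTCCA in 0.261%. Among the liver-type secreted proteins, 8 of 35 promoters (22.9%) held GTTAAT, and it was in 7 of 30 (23.3%) for nutrient and ion transport, 3 of 14 for brush border enzymes, 2 of 12 for lipid genes and 1 of 14 for brush border structure. TTTATNG was in 7 of 30 promoters of the transport genes, 3 of 12 of the lipid genes, 4 of 35 of the liver-type genes (11.4%) and 2 of 14 in each brush border list (14.3%). CAAAGTCCA was in 2 liver-type promoters and 1 of a brush border enzyme, and in none of the other lists. None of the 24 promoters of cell cycle genes and none of the 13 of junction genes held either motif, whereas CCAAT stood in 17 of 24 cell cycle promoters (70.8%) against 34.7% of all. TATAAA was in 9.13% of all promoters and was also more frequent in several of the same lists. It was in 9 of 35 liver-type promoters (25.7%), 4 of 12 lipid (33.3%), 3 of 14 brush border enzyme (21.4%) and 6 of 30 transport promoters (20%). None of the brush border structure and junction promoters and 1 of 24 cell cycle promoters held it. Not every list member had a promoter in this set, which held 13 of 22 junction, 24 of 32 cell cycle and 12 of 18 lipid genes. VIL1 and APOA1 had none. These shares describe the promoters present and were not tested.

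The most abundant transcripts came from protein synthesis, glycolysis and mitochondria, with a lipoprotein, matrix and iron transport component among them. EEF1A1, the translation elongation factor that brings tRNA to the ribosome, was first by CPM, with values of 15482, 16471 and 16149, which was 1.60 ± 0.0505% of all counts. GAPDH, a glycolytic dehydrogenase, was at 6466 ± 405 CPM, and the mitochondrially encoded oxidase subunit COX1 at 5613 ± 523 CPM. APOB, the scaffold of chylomicrons and of very-low-density lipoprotein, was sixth in order of CPM, with 6311, 4025 and 4625 CPM. Library A was highest for APOB, and the mean of 4987 ± 1185 CPM had the largest relative spread among the 30 most abundant genes. FN1, which encodes the matrix protein fibronectin, was at 4332 ± 357 CPM. SCD, the desaturase that makes monounsaturated fatty acids, was at 4249 ± 46.2 CPM, with nearly the same value in every library.

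Among these 30 genes were 8 of the cytosolic ribosome (RACK1, RPS2, RPL3, RPS3, RPL4, RPL13A, RPLP0 and RPS24), 5 of glycolysis (GAPDH, LDHA, ENO1, ALDOA and TPI1), 3 mitochondrially encoded genes (COX1, RNR2 and ND4) and 3 elongation factors (EEF1A1, EEF2 and EEF1G). Among the other 11 were TPT1, APOB, FN1, SCD, NDRG1, SLC11A2, ACTB, APLP2, SLC2A3 and PSAP. SLC11A2, the apical transporter for ferrous iron, was at 2492, 2743 and 2786 CPM, lowest in A. NDRG1, known as a gene induced by low oxygen and by differentiation, was at 2784 ± 85.3 CPM. SLC2A3, a high-affinity glucose transporter better known from neurons, was at 2179 ± 134 CPM. PSAP, the precursor of the lysosomal saposins, was at 2092 ± 55 CPM. The 30 genes together held 10.8 ± 0.229% of counts, the top 1000 held 52.8 ± 0.262%, and 865 genes were needed to reach 50% of counts.

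**Figure D1:**
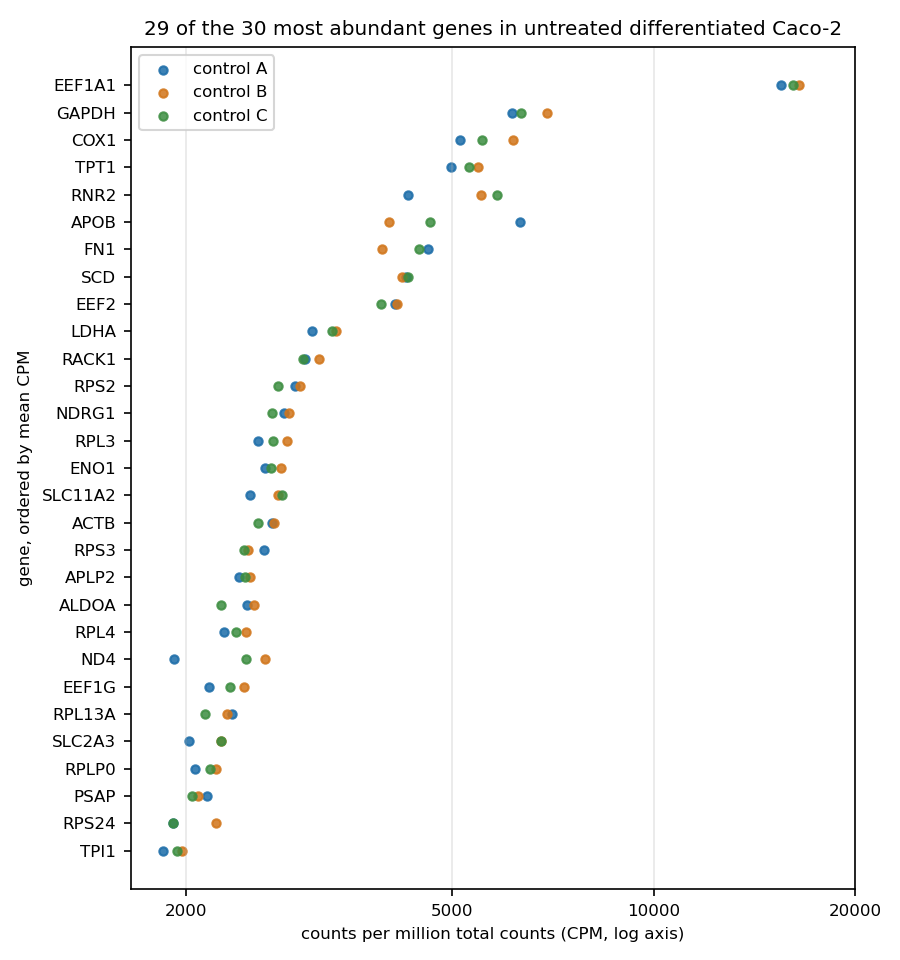
CPM (log axis) of 29 of the 30 genes with the highest mean, 1 point per control library. EEF1A1 stands alone at the top (15482 to 16471 CPM), and APOB (6311 in A, 4025 in B) shows the widest relative gap between libraries.

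Order by CPM depends on transcript length. Per kilobase, 15 of these 30 genes stayed among the 30 highest, and the long genes APOB and FN1 moved to places 176 and 127. Ribosomal protein genes such as RPS27, at 3743 ± 360 CPM/kb, entered the 30 highest, as did FTL (ferritin light chain) and the mitochondrial COX3, COX2 and ATP6. Per kilobase APOA1 stood 3.76 ± 0.819 times as high as APOB. Of the long non-coding RNAs, the small nucleolar RNA host gene SNHG29 was highest by CPM at 1588 ± 48.2, and NORAD was at 1263 ± 44.1 CPM.

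The structural genes of the brush border were all detected, 18 of 18, with a median of 164 CPM. In the file as a whole 45.6% of genes and 62.9% of protein-coding genes passed the same rule. NHERF1, the scaffold that anchors apical transporters, was at 657, 602 and 583 CPM, and EZR, which links membrane to actin, at 390, 403 and 408 CPM. Per kilobase the order was NHERF1 at 312 ± 19.3, VIL1 at 186 ± 4.56, EZR at 130 ± 3.11 and USH1C, which joins the protocadherins at microvillus tips, at 110 ± 2.74 CPM/kb. The tip protocadherins CDHR2 and CDHR5 were at 118 ± 10.0 and 18.9 ± 2.47 CPM. CEACAM20 was the lowest of the 18 by CPM, with 5.47 ± 0.450 CPM.

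Of 18 digestive enzymes of the brush border 14 were detected (77.8%, against 62.9% of all protein-coding genes). Their median was 30.2 CPM, and their levels formed a graded series. DPP4 led per kilobase at 198 ± 7.05 CPM/kb, followed by MEP1A, the alpha subunit of the metalloprotease meprin, at 89.0 ± 1.94 CPM/kb, and XPNPEP2, a membrane aminopeptidase, at 64.1 ± 8.06 CPM/kb. ANPEP, aminopeptidase N, was at 153 ± 11 CPM and ALPI, the intestinal alkaline phosphatase, at 62.2 ± 4.50 CPM. LCT, the lactase, was at 21.7, 18.2 and 16.9 CPM. Per kilobase SI exceeded LCT by 16.6 ± 2.37 times, and it exceeded MGAM, the maltase-glucoamylase closest to it in function, by 450 ± 107 times. MGAM reached 1 CPM in A alone (1.31, 0.983 and 0.832 CPM) and 9 of its 10 neighbouring genes were under 1 CPM. Also below the threshold were MME (neprilysin) at 0.239 ± 0.0408 CPM, MEP1B, the second meprin subunit, at 0.192 ± 0.123 CPM, and TMPRSS15, the enteropeptidase that activates trypsin, at 0.173 ± 0.0270 CPM.

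Of 33 genes for nutrient and ion transport 27 were detected (81.8%, against 62.9% of all protein-coding genes), with a median of 60.7 CPM. On the iron route, apical SLC11A2 was at 647 ± 38.5 CPM/kb and SLC40A1, the basolateral iron exporter ferroportin, at 334 ± 9.80 CPM/kb. TFRC, which takes up transferrin-bound iron, was at 1445 ± 70.9 CPM. On the amino acid route, SLC7A7, the basolateral carrier of cationic amino acids, was at 1275, 1281 and 1226 CPM, and SLC15A1, the apical peptide carrier, at 140, 152 and 136 CPM. SLC6A19, the main apical carrier of neutral amino acids in the small intestine, was at 1.69 ± 0.0661 CPM. SLC6A20, an apical carrier of proline, was at 0.984, 1.09 and 1.08 CPM.

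The glucose carriers were ordered SLC2A3, SLC2A1, SLC2A5, SLC2A2 and SLC2A4 per kilobase, and no neighbouring pair in this order overlapped between libraries. SLC2A1, the carrier of most growing cells, was at 322 ± 9.58 CPM/kb, and SLC2A5, the fructose carrier, at 41.7 ± 3.70 CPM/kb. SLC2A2, the basolateral carrier of enterocytes and hepatocytes, was at 15.4, 15.3 and 15.6 CPM, and SLC2A3 exceeded it by 116 ± 6.98 times per kilobase. SLC5A1, the sodium-coupled apical glucose carrier, was at 95 ± 1.59 CPM. Under the threshold, besides SLC6A20, were AQP8, a water channel (0.581 ± 0.178 CPM), both subunits of the sterol exporter, ABCG5 (0.113 ± 0.0623 CPM) and ABCG8 (0.180 ± 0.0670 CPM), the calcium channel TRPV6 (0.120 ± 0.0844 CPM) and the fatty acid receptor CD36, with a single count in B. NPC1L1, the cholesterol uptake protein targeted by ezetimibe, was detected at 30.1 ± 2.01 CPM.

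Genes for lipid handling had the highest median of the gut lists, 207 CPM. Of the 18, 17 were detected (94.4%, against 62.9% of all protein-coding genes). Per kilobase APOA1 led with 1284 ± 74.4, before APOC3, an inhibitor of triglyceride clearance, at 1057 ± 72.1, APOE at 815 ± 69.0 and APOA2 at 768 ± 27.6 CPM/kb, and the last of these overlapped between libraries with APOE. MTTP, which loads lipid onto apolipoprotein B, was at 132, 143 and 144 CPM. MOGAT2, which starts the resynthesis of triglyceride in enterocytes, was at 1.55 ± 0.130 CPM, and DGAT1 and DGAT2, which complete it, were at 277 ± 29 and 60.5 ± 3.92 CPM. APOC2, the activator of lipoprotein lipase, had no count. It shares 33.4% of its exon length with the read-through gene APOC4-APOC2, which had no count either, and the part of this overlap in its value was not tested.

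**Figure D2:**
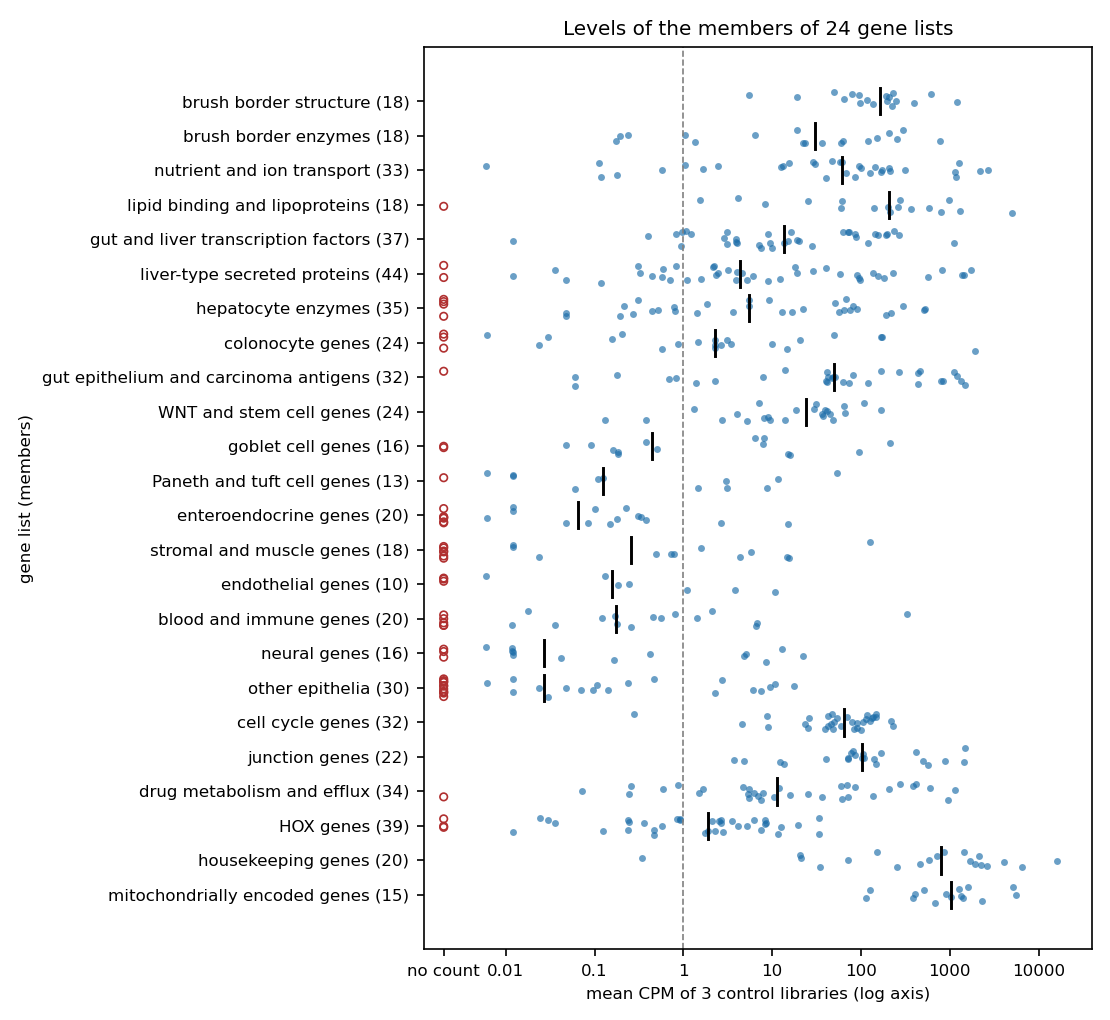
Mean CPM (log axis) of each member of the 24 lists. Blue points have a count, red rings at the left have none in any library, black bars are list medians and the dashed line is 1 CPM; all members of the brush border structure and junction lists lie to the right of the line, and most members of the enteroendocrine, neural and other-epithelia lists to its left.

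Of the transcription factors of gut and liver, 30 of 37 were detected (81.1%, against 62.9% of all protein-coding genes). HNF4A was the highest of them per kilobase. HNF4A, the nuclear receptor that drives enterocyte and hepatocyte programs, was at 1160, 1098 and 1085 CPM, at the 99.66th percentile of all genes by CPM. Per kilobase it stood at 173 ± 6.24 CPM/kb, before CEBPA, a leucine zipper factor of liver and fat, at 102 ± 8.14, KLF5, a factor of proliferating crypt cells, at 66.8 ± 2.18, and ELF3, an epithelial ETS factor, at 59.8 ± 1.62 CPM/kb. GATA6 and CDX2 followed at 49.1 ± 2.43 and 48.3 ± 2.93 CPM/kb, and their library ranges overlapped. PDX1, the duodenal and pancreatic homeobox factor, was at 3.88 ± 0.807 CPM, and SOX2, a factor of stomach and esophagus, at 9.89 ± 0.752 CPM. Not detected were ONECUT2, NR1I2 (the xenobiotic receptor PXR), TFCP2L1, ONECUT1, EHF, NR0B2 and CDX1.

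Where a factor has a close relative, a single family member carried most of the signal. HNF4A exceeded HNF4G by 40.6 ± 4.20 times per kilobase, and GATA6 exceeded GATA4 by 17.7 ± 1.00 times. CDX1, the relative of CDX2 that acts in the same gut lineage, had 2 counts in A (0.0364 CPM) and none in B and C, although 7 of its 10 neighbouring genes were at 1 CPM or more. FOXA1 stood 3.16 ± 0.0423 times above FOXA2, the smallest of these gaps.

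The same held for several metabolic families. FABP1, the fatty acid binding protein of liver and proximal gut, was at 214, 215 and 208 CPM, whereas FABP2, the intestinal form, was at 7.89, 8.19 and 9.01 CPM. The ratio per kilobase was 114 ± 9.42. The intestinal ALPI exceeded the placental form ALPP by 14.7 ± 2.17 times. ALPG, another member of the set, was closer, at 13.4 ± 1.21 CPM, and ALPI stood 4.53 times above it per kilobase. CYP3A5, a drug oxidase, was at 59.3 ± 4.80 CPM, and CYP3A4, the main drug oxidase of adult gut and liver, was at 1.00, 0.536 and 0.885 CPM. Their ratio per kilobase ranged from 75.4 to 148 over the libraries, and CYP3A4 rested on 55, 30 and 50 counts. CES1, the liver-type carboxylesterase, exceeded CES2, the intestinal type, by 2.63 ± 0.417 times. In the villin family GSN (gelsolin) stood above VIL1, with VIL1 at 0.372 ± 0.0168 of GSN per kilobase.

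**Figure D3:**
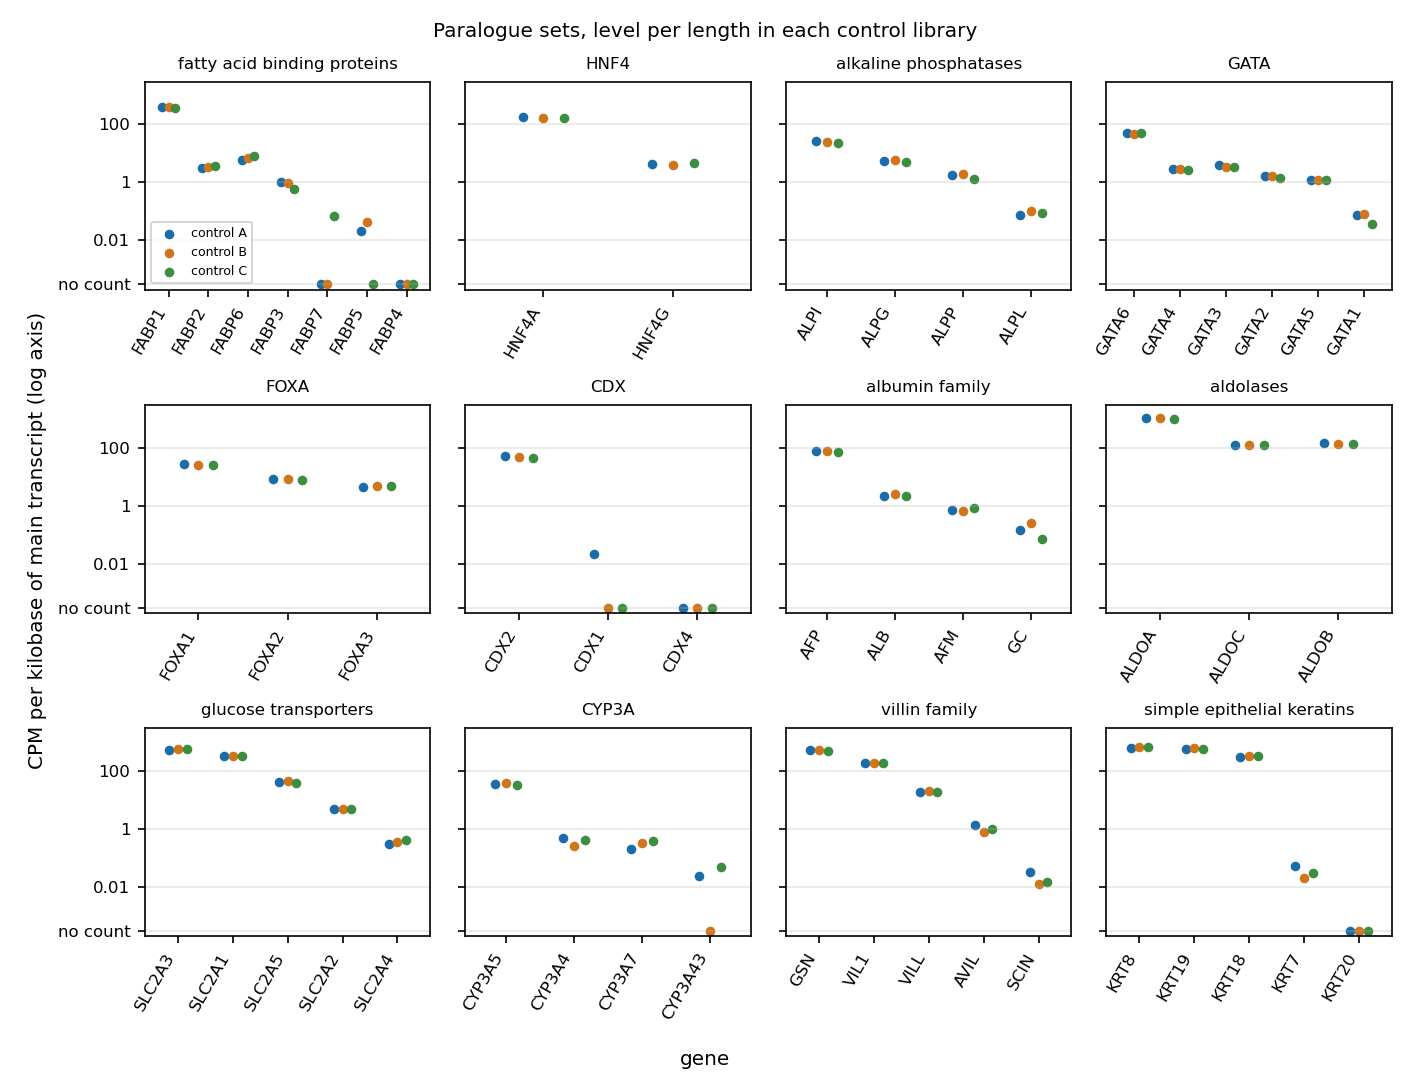
CPM per kilobase of the main transcript (log axis) for 12 paralogue sets, genes ordered by CPM within a set, 1 point per control library. The gap between HNF4A and HNF4G, FABP1 and FABP2, AFP and ALB, and CYP3A5 and CYP3A4 is far wider than the spread of the 3 points of a gene.

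Liver-type secreted proteins were present in part: 31 of 44 were detected (70.5%, against 62.9% of all protein-coding genes). Of these, 9 were at 100 CPM or more, and the median of the list was 4.31 CPM. AHSG, or fetuin-A, a plasma glycoprotein abundant in the fetus, was at 1880, 1716 and 1608 CPM and was the 43rd gene by CPM. VTN, the plasma adhesion protein vitronectin, was at 1544, 1433 and 1356 CPM. AGT, the precursor of angiotensin, was at 1416, 1432 and 1324 CPM. SERPINA1, alpha-1-antitrypsin, which is made by liver and gut epithelium, was at 847, 828 and 777 CPM, and KNG1, kininogen, at 588, 595 and 545 CPM. All 5 were lowest in C.

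AFP, the fetal albumin relative, was at 185, 186 and 174 CPM, and ALB, adult serum albumin, at 4.79, 5.68 and 4.96 CPM. AFP exceeded ALB by 32.3 ± 2.69 times per kilobase. The 3 fibrinogen chains were detected, FGA at 138 ± 2.21, FGB at 58.4 ± 7.80 and FGG at 95.7 ± 8.31 CPM, as were the clotting factors F2 (97.5 ± 2.10 CPM) and F10 (156 ± 5.14 CPM). TF, transferrin, was near the threshold at 1.11 ± 0.0708 CPM, and HP, haptoglobin, was at 3.89 ± 0.260 CPM. Among the 13 members under 1 CPM were the acute-phase proteins CRP (no count) and SAA1 (0.0480 ± 0.0216 CPM), the iron hormone HAMP (2 counts, in B alone), PLG (plasminogen), GC (the vitamin D carrier, 0.305 ± 0.171 CPM), HRG, F13B, FETUB, A1BG, ITIH1, ITIH3 and ITIH4. CRP lay among genes with few counts, with 9 of its 10 neighbours under 1 CPM.

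Hepatocyte enzymes and carriers were detected in 21 of 35 cases (60%), near the 62.9% of all protein-coding genes. ASS1, which makes argininosuccinate, was at 531 ± 13.7 CPM, ALDH1A1, a retinal dehydrogenase, at 509 ± 10.6 CPM and CPS1, the first enzyme of the urea cycle and also present in small intestine, at 320, 267 and 301 CPM. OTC, the urea cycle step between CPS1 and ASS1, was at 0.449 ± 0.0532 CPM. The 2 chains of the asialoglycoprotein receptor, ASGR1 and ASGR2, were at 91.2 ± 7.42 and 64.0 ± 4.01 CPM. CYP27A1, the sterol hydroxylase of the alternative bile acid pathway, was at 191 ± 15.4 CPM and CYP7A1, the rate-limiting enzyme of the classical pathway, at 0.0478 ± 0.0205 CPM. ABCB11 (the bile salt export pump), ADH1A, CYP1A2 and TDO2 had no count, and 8 of 10 neighbours of TDO2 were under 1 CPM.

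The colonocyte list was detected in 14 of 24 cases (58.3%, against 62.9% of all protein-coding genes), with a median of 2.30 CPM. SLC26A2, the sulfate carrier, was at 1919, 1823 and 1997 CPM, SLC26A3, the chloride-bicarbonate exchanger, at 166, 165 and 175 CPM, and GUCY2C, the guanylin receptor, at 173, 175 and 169 CPM. The ligands GUCA2A and GUCA2B were at 3.48 ± 0.0685 and 2.30 ± 0.397 CPM. Of the 10 members under 1 CPM, AQP8 is given above, and 6 more were CA1 at 0.0299 ± 0.0104 CPM, CA4 at 0.203 ± 0.0541 CPM, BEST4 at 0.156 ± 0.0231 CPM, OTOP2 at 0.878 ± 0.155 CPM, CD177 at 0.0237 ± 0.0205 CPM and MS4A12 at a single count. KRT20 had no count, but 9 of its 10 neighbours were under 1 CPM. SCNN1B and SCNN1G, 2 subunits of the epithelial sodium channel, also had no count, with 8 of 10 neighbours of each at 1 CPM or more, and their partner SCNN1A was at 20.7 ± 0.247 CPM.

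Of 32 general epithelial and carcinoma antigens 26 were detected (81.25%, against 62.9% of all protein-coding genes), with a median of 49.99 CPM. CDH1, E-cadherin, was at 1544, 1435 and 1480 CPM, CDH17, the intestinal cadherin, at 1232, 1396 and 1402 CPM, and EPCAM at 1080, 1163 and 1082 CPM. Per kilobase the simple keratins KRT8, KRT19 and KRT18 stood at 645 ± 37.6, 580 ± 7.45 and 307 ± 15.3 CPM/kb, and KRT7, a keratin of other simple epithelia, was at 0.0600 ± 0.0283 CPM. The carcinoembryonic antigens CEACAM6 and CEACAM5 were at 72.8 ± 7.46 and 48.7 ± 2.80 CPM. LGALS4, a gut galectin, was at 1.38 ± 0.112 CPM, and LGALS14, known from placenta and outside the lists, was at 279, 277 and 269 CPM. LGALS14 was singled out after its values were seen. Whether reads could match more than 1 galectin gene was not tested, and counts are uncertain where they could. LCN2, a siderophore binder raised in inflamed gut, had no count, with all 10 neighbours at 1 CPM or more, and PIGR, the carrier of secretory antibodies, was at 0.691 ± 0.268 CPM.

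WNT targets and cycling genes were detected alongside the differentiation markers. Of 24 WNT and stem cell genes 21 were detected (87.5%, against 62.9% of all protein-coding genes). CTNNB1, beta-catenin, was at 168 ± 1.17 CPM, AXIN2, a negative feedback target, at 29.3 ± 1.77 CPM, RNF43 at 41.5 ± 0.443 CPM, MYC at 66.0 ± 2.16 CPM and the crypt stem cell receptor LGR5 at 9.46, 8.51 and 9.18 CPM. OLFM4, another crypt marker, was at 0.383 ± 0.115 CPM. Of 32 cell cycle genes 31 were detected (96.9%, against the same 62.9%), with a median of 64.2 CPM. Among them, TOP2A, a topoisomerase of dividing cells, was at 213, 231 and 240 CPM. The proliferation antigen MKI67 was at 237, 201 and 216 CPM. The inhibitors CDKN1A and CDKN1B were at 100.6 ± 3.94 and 107 ± 2.97 CPM, and CDKN1C was the member not detected.

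Of 39 HOX genes, which record position along the body axis, 21 were detected (53.8%, against 62.9% of all protein-coding genes). HOXA13, a hindgut gene, was at 33.4, 31.8 and 36.0 CPM and HOXB7 at 33.9, 34.6 and 32.5 CPM. HOXB13, another posterior gene, was at 8.60 ± 0.685 CPM. By summed CPM the clusters stood at 77.5 (HOXA), 56.0 (HOXB), 41.4 (HOXC) and 12.8 (HOXD). In the HOXD cluster 2 of 9 genes were detected, with no count for HOXD11, HOXD12 and HOXD13.

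All 22 junction genes were detected, against 62.9% of all protein-coding genes. DSP, the desmosomal plaque protein, was at 1430 ± 108 CPM and CTNNA1, which ties cadherins to actin, at 883 ± 7.46 CPM. TJP1, the tight junction protein ZO-1, was low and uneven at 1.80, 3.4 and 9.22 CPM, and its 10 neighbours were all under 1 CPM. Of 34 drug metabolism and efflux genes with a row, 28 were detected (82.4%, against the same 62.9%). GSTA1, a glutathione transferase of gut and liver, was at 969, 1003 and 903 CPM, GSTP1 at 596 ± 26.2 CPM and SLCO2B1, an organic anion importer, at 1138 ± 62.2 CPM. Among efflux pumps, ABCC2 was at 418 ± 11.5 CPM, ABCC3 at 273 ± 34.8 CPM, ABCB1 (P-glycoprotein) at 70.3 ± 3.44 CPM and ABCG2 at 12 ± 1.71 CPM. AHR, the receptor for aromatic ligands, was at 70.8 ± 8.21 CPM and its target CYP1A1 at 5.55 ± 0.232 CPM.

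Genes of other cell types were mostly not detected, whereas 62.9% of all protein-coding genes were. The detected share was 43.75% in the goblet cell, 38.5% in the Paneth and tuft cell and 10% in the enteroendocrine list. Of 20 enteroendocrine genes 2 passed, MLN (motilin) at 15.3 ± 1.73 CPM and CHGB at 2.65 ± 0.453 CPM, and CHGA had a single count. Of 16 goblet cell genes 7 passed: AGR2, a disulfide isomerase of mucus secretion, at 184, 230 and 231 CPM, ZG16 at 94.0 ± 6.39 CPM, TFF2 at 16.1 ± 2.56 CPM, TFF3 at 15.3 ± 3.47 CPM, FCGBP at 8.13 ± 0.746 CPM, TFF1 at 7.93 ± 0.606 CPM and ITLN1 at 6.4 ± 0.0918 CPM. The goblet mucin MUC2 and the secretory lineage factor ATOH1 had no count. For MUC2 7 of 10 neighbours were at 1 CPM or more, and for ATOH1 2 of 10. Among Paneth and tuft cell genes, 5 of 13 passed, PLA2G2A at 53.9 ± 4.53, LYZ (lysozyme) at 11.8 ± 1.93, GFI1B at 8.72 ± 0.241, ITLN2 at 3.07 ± 0.307 and AVIL at 3.02 ± 0.870 CPM.

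In the blood and immune list 5 of 20 passed, CD68 at 340, 339 and 303 CPM, CSF1R at 6.82 ± 0.601, CD14 at 6.60 ± 0.466, ITGAM at 2.08 ± 0.477 and CD4 at 1.42 ± 0.289 CPM. CD68 is a lysosomal protein as well as a macrophage marker, and PTPRC, which defines white blood cells, had no count. The stromal list passed in 6 of 18 cases, with COL1A1 at 149, 131 and 105 CPM, highest in A, and COL1A2, the partner chain of type I collagen, at no count. The others were TAGLN (15.5 ± 1.69 CPM), PDGFRA (14.6 ± 2.49 CPM), PDGFRB (5.82 ± 0.832 CPM), COL3A1 (4.34 ± 0.745 CPM) and LUM (1.56 ± 0.266 CPM). The summed level was 153 to 186 CPM for the stromal list, 322 to 359 for blood and immune, 51.5 to 56.1 for neural, 55.3 to 59.0 for other epithelia and 15.4 to 16.6 CPM for endothelial genes, where PECAM1 (10.6 ± 0.480 CPM) and ESAM (3.85 ± 0.292 CPM) were the 2 of 10 that passed. Among the 5 that passed in the neural list were MBP (22.2 ± 1.10 CPM), UCHL1 (12.8 ± 1.19), TUBB3 (8.63 ± 0.112) and SYP (4.77 ± 0.845 CPM). PAX8 was the highest by CPM of the 7 that passed among 30 genes of other epithelia, at 17.6 ± 0.316 CPM, before KRT10, GATA3, PGC, TG, FOXJ1 and NPHS1, which ranged from 2.25 to 10.7 CPM. Of all protein-coding genes 62.9% passed the same rule. The share was 33.3% in the stromal, 31.25% in the neural and 25% in the blood and immune list. It was 23.3% for other epithelia and 20% for endothelial genes. The part of markers of other cell types in the profile was not tested. Some large families had no detected member, such as 371 olfactory receptor genes and 371 segments of immunoglobulin and T-cell receptor genes.

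Some genes that all cells use had counts near 0 in these files. Among 277 members of 7 families of core cellular proteins, 12 were under 1 CPM, against 36.0% of all placed protein-coding genes. They included RPS18, a ribosomal protein, at 0.346, 0.5 and 0.230 CPM and PRPF8, the core splicing factor, at 0.101 ± 0.0260 CPM. EIF4A1, an initiation helicase, had no count, and 83.5% of its exons are shared with the read-through gene SENP3-EIF4A1. TUBB, a beta-tubulin, was at 0.346 ± 0.0324 CPM, the only 1 of 20 housekeeping genes not detected. Of the 12 genes, 11 had either 5 or more of 10 neighbours under 1 CPM or 50% or more of their exons shared with another gene. This was a property of 30.3% of all placed protein-coding genes. The 12 were picked by their low counts and the 30.3% covers genes at all levels, so no conclusion is drawn from the gap. Over all protein-coding genes, 86 of 99 with 90% or more of their exons shared were under 1 CPM (86.9%), and 51.9% of those with 50% to under 90% shared. The share was 23.3% for genes with less than 50% shared, below the 38% of genes with no shared exon. These families and classes were chosen after the values had been seen.

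Low counts also ran along chromosome 6 from 29000000 to 33000000 (GRCh38.p14), an interval that holds the HLA genes and was chosen after the values had been seen. There 125 of 139 protein-coding genes were under 1 CPM (89.9%), against 38.6% on the rest of the chromosome, and the genes just outside both bounds were also mostly under 1 CPM. HLA-C was at 3.73 ± 1.03 CPM, and its partner B2M, encoded on chromosome 15, was at 63.2, 80.6 and 72.4 CPM. Genes that cells of all kinds use were low in the same interval, such as LSM2 and MRPS18B with no count. How reads that match more than 1 place in the genome were treated is not given in the sources used here, and its part in these values was not tested.

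**Figure D4:**
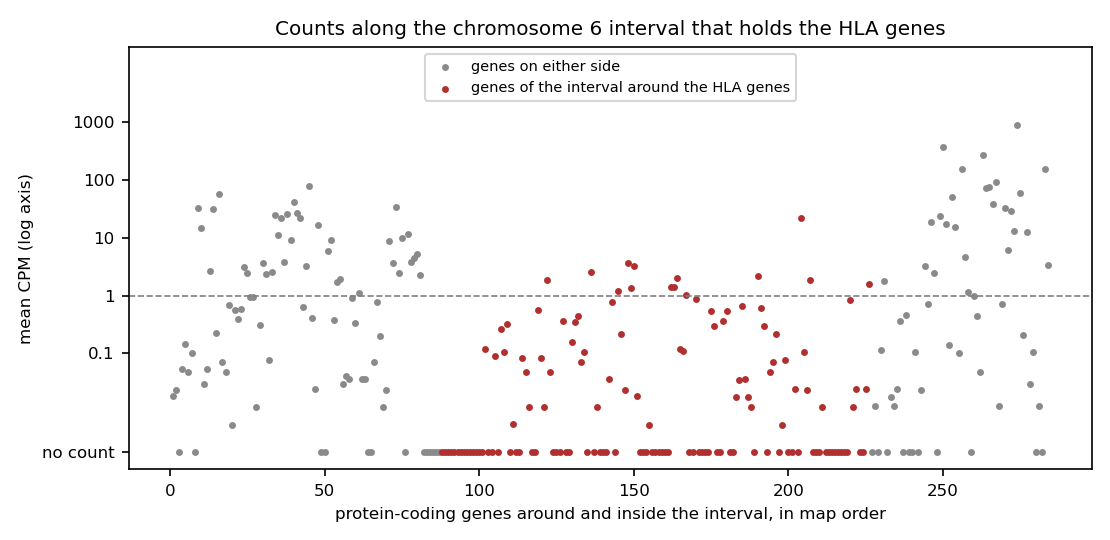
Mean CPM (log axis) of protein-coding genes of chromosome 6 in map order, with the 139 genes of the interval around the HLA genes in red and their neighbours in grey. In the interval 125 of 139 genes lie below the dashed line at 1 CPM.

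Most levels differed little between libraries. The median coefficient of variation was 4.96% over 9474 genes with a mean of at least 10 CPM, and in 63 of these the highest library exceeded the lowest by more than 1.5 times. The 10 widest were CUTA, DHRS11, YWHAE, NAP1L4, LSM14A, EEF1D, PUF60, CBS, TNFRSF14 and SSBP1. CUTA was at 1.82, 1.70 and 53.5 CPM, YWHAE, a 14-3-3 protein, at 102, 17.2 and 17 CPM and DHRS11 at 27.3, 2.90 and 1.61 CPM. In each of these 3 genes a single library stood apart. Of the 10 genes, 6 had 5 or more of 10 neighbours under 1 CPM. This was a property of 18.1% of protein-coding genes with a mean of at least 10 CPM. The 10 were picked by their spread and had means of 10.4 to 45.5 CPM, so no conclusion is drawn from the gap.

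Among genes at 100 CPM or more, looked up after their values were seen, the 10 widest included long transcripts that were highest in A and 3 mitochondrial transcripts that were lowest in A. LRP2, the endocytic receptor megalin, was at 1270, 755 and 932 CPM, LRP1, a related receptor, at 1480, 967 and 1119 CPM and KMT2D, a histone methyltransferase, at 276, 159 and 186 CPM. APOB followed the same order of libraries, highest in A and lowest in B. ND2 was at 1028, 1387 and 1634 CPM, and mitochondrially encoded genes held 1.94, 2.51 and 2.43% of counts in A, B and C. Over 9446 genes, the deviation of a library from the mean of the 3 correlated with transcript GC at Spearman rho 0.57 in A, 0.08 in B and -0.68 in C, a description across genes of the same libraries. With transcript length, rho was 0.08 in A, -0.38 in B and 0.19 in C. The part of GC and length in single genes' spread was not tested.

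**Figure D5:**
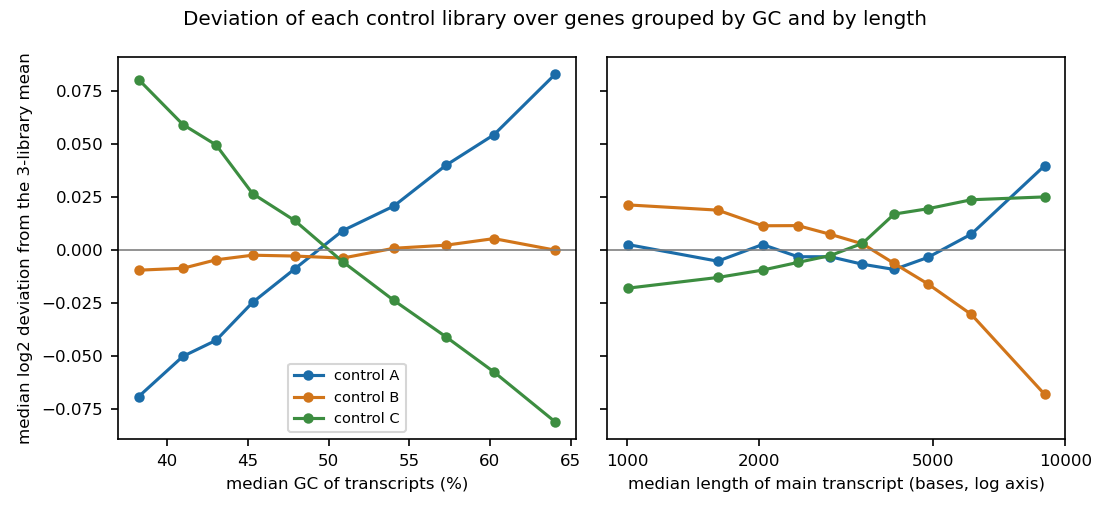
Median log2 deviation from the mean of the 3 control libraries, over genes grouped into 10 equal sets by transcript GC (left) and by main transcript length (right, log axis). Library A rises with GC from -0.07 to 0.08, C falls from 0.08 to -0.08, and B is lowest (-0.07) for the longest transcripts.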

How the data were processed

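RNA-seq of 3 untreated control libraries was used; the 6 treated libraries were left out. The authors deposited whole-number read counts per gene, 1 file per library, keyed by NCBI gene number. The column names show HISAT2 alignments, per the file headers. The submitters' processing notes list featureCounts, FastQC, HISAT and the hg38 build, without versions. Which annotation release was counted, whether strand was used and how reads matching several places were handled is not given in the sources used here. Symbols, gene types and coordinates came from RefSeq (GRCh38.p14); 27745 of 28395 genes matched, and the 650 others held 0.0431 to 0.0487% of counts. Of 608 list symbols 607 had a row. Main transcript length, GC and exon overlap came from GENCODE 29 (principal transcript).

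CPM is a count divided by the library's total, per 1000000; the SD is over 3 libraries. Libraries held 54871018 to 56511439 counts, which sets a limit of 0.0531 to 0.0547 CPM for 3 counts. No group was compared with another, so no test was run across genes. The level, rank and detection steps were tested on simulated data with counting error only, so the spread between libraries was not covered. Alternatives were edgeR's TMM scaling (4.0.16, R 4.3.3), other detection rules, other denominators, levels per length and leaving out each library. Tables were made with Python 3.11.15, pandas 2.3.3 and numpy 2.4.6, figures with matplotlib 3.10.9.

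Genes were named by this rule: the 30 highest by mean CPM, the 5 given markers, the 4 highest per length of each of 24 lists, the members of 16 paralogue sets, detected genes of other cell types, the 10 widest between libraries, and gut, liver and colonocyte members under 1 CPM where a list had 10 or fewer of them. Other genes were named after their values were seen, to illustrate a list, as were the core protein families, exon overlap classes and chromosome 6 interval. The members and lists were chosen with earlier results of these data known. Some members of the lists are not reported here.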

Additional observations from a re-analysis of the deposited data

How the results depend on the processing

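The number of detected genes ranged from 12952 (TMM) to 15259 (10 counts in every library) around 12957, and the genes with no count from 7917 to 8031 when a library was left out, with 9973 at no more than 3 counts, around 7381. With 10 counts in every library 5 enteroendocrine genes passed in place of 2, and 9 blood and immune genes in place of 5. Without the mitochondrially encoded genes in the denominator the 50 most abundant genes held 13.8% of counts in place of 14.4%. Of the 30 most abundant genes 15 remained per kilobase of main transcript, and 13 per kilobase of all exons together, an alternative chosen after seeing the data. Of 624 named genes, 51 moved by more than their SD without the mitochondrial denominator, by at most 2.45%, and none under TMM, by at most 0.282%. Leaving out a library shifted a gene of these 624 with a mean above 1 CPM by up to 31.2% (A), 17.5% (B) or 45.9% (C). The 624 did not include CUTA, DHRS11 and YWHAE, which are named above as widest between libraries. Their means rest on a single library and shift by more, as for CUTA at 1.82, 1.70 and 53.5 CPM in A, B and C. No paired analysis was possible because there is 1 group and no test between groups. Depth limits levels under 0.0531 to 0.0547 CPM. Values near 0 of genes with shared exons, similar copies or low neighbours are uncertain, since the counting of such reads is not given in the sources used here.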
